A study of Rattus norvegicus with 8 samples.

Results

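The sugar and carboxylate transporter genes are 41 genes of 4 solute carrier families, of 18166 genes that the array's annotation names singly. They were taken by symbol from Slc2a, Slc5a, Slc13a and Slc16a, leaving out Slc5a3, the myo-inositol importer. The Slc2a family has 12 measured members, Slc5a 13, Slc13a 5 and Slc16a 11. Each was measured by 1 probe set, so no choice between probe sets had to be made. RNA came from kidney of 10-week-old male Wistar rats, and the samples fall by tissue region into 4 arrays of medulla and 4 of cortex. All 8 carry 1 treatment label, ethylene glycol every day and vitamin D on alternate days for 1 week, a regimen that leads to calcium oxalate crystals in the rat kidney. No contrast of treatments was made. Because arrays of 1 region differ widely in the same genes, the label may not state everything that differs between them, and a range or SD over the arrays then holds more than the spread of like samples. The labels name no separate animals and do not say which medulla and cortex arrays came from 1 animal, so a p-value here reflects the spread of the arrays alone, some or all of which could be technical.

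Filtered glucose, lactate, citrate and sulfate are taken back from the urine by the proximal tubule. Sodium-coupled carriers of the Slc5a and Slc13a families bring them in across the apical membrane. Facilitative Slc2a carriers and proton-coupled Slc16a carriers pass sugars and monocarboxylates along their gradients, many of them on the blood side. The work is divided along the tubule: the early convoluted part uses high-capacity carriers such as SGLT2 and GLUT2, and the late straight part uses others such as SGLT1. Citrate that stays in the urine binds calcium and hinders crystal growth, which is why its carrier, Slc13a2, is studied in stone disease.

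Medulla replicate 4 and cortex replicate 4 stood apart from the other arrays. The summed intensity of 5 tubular injury markers was 2778 on medulla replicate 4 and between 154.7 and 679.0 on the other medulla arrays, against 2621 on cortex replicate 4 and between 169.2 and 313.9 on the other cortex arrays. Havcr1 made up most of this sum on the replicate 4 arrays. It measured 4.54, 4.80, 8.95 and 11.32 log2 intensity on medulla replicates 1 to 4, against 4.59, 5.15, 7.54 and 11.27 in cortex. It was thus raised on the replicate 3 arrays too. Lcn2 was also highest on both replicate 4 arrays. Sox9 was highest on medulla replicate 4 alone, and Vcam1 and Krt20 on neither. The 5 markers of the proximal straight tubule summed to 4194 on medulla replicate 4 and to between 6668 and 6898 on the others, against 3665 on cortex replicate 4 and between 6596 and 7568 on the others. The sums of thick ascending limb and principal cell markers were also lowest there. The 4 markers of the thick ascending limb summed to 2982 on medulla replicate 4 and to between 5302 and 6317 on the others, against 2307 on cortex replicate 4 and between 5128 and 6792 on the others. The 4 markers of principal cells of the collecting duct summed to 591.6 on medulla replicate 4 and to between 1163 and 2578 on the others, against 573.6 on cortex replicate 4 and between 1106 and 1336 on the others. Single markers could differ from these sums. Cldn16, of the thick ascending limb, was not lowest on medulla replicate 4, at 7.81 against 7.74 to 7.84 on the others. Scnn1g, of principal cells, was not lowest on either of the replicate 4 arrays, at 7.22 in medulla and 7.51 in cortex. Ranges of 2-fold or more that rest on these arrays are given without them as well. The region labels were checked with 3 inner medullary markers, whose sum lay between 215.0 and 816.5 on medulla arrays and between 131.6 and 197.7 on cortex arrays. The margin was narrow between medulla replicate 2, the lowest of its region, and cortex replicate 1, the highest, with Akr1b1 at 6.68 and 6.69 there. Medulla replicate 2 also had the highest podocyte marker sum of its region, 725.6 against 414.9 to 476.5. That sum lay between 521.9 and 812.2 on cortex arrays. How much cortex each medulla array held was not tested. The medulla arrays also held proximal tubule RNA, with the sum of 6 markers between 5085 and 7801 on medulla arrays and between 6828 and 8337 on cortex arrays. In tissue RNA, fewer cells of a type and less RNA per cell cannot be told apart.

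Within each region, 9 of the 41 genes had a range of at least 2-fold between the medulla arrays and 9 between the cortex arrays, where the range is the highest minus the lowest log2 intensity. Over all genes this share was 3.8% in medulla and 3.6% in cortex, against 22.0% of the members in each region. In both regions together 7 members passed (17.1%), against 2.21% of all genes. They were Slc2a2, Slc5a2, Slc5a12 and Slc13a1, each highest on both replicate 4 arrays, and Slc2a5, Slc2a13 and Slc16a7, each lowest on both. Of all 402 genes that passed in both regions, 42.5% were highest on both replicate 4 arrays and 46.3% lowest. Without these arrays 2 members passed in both regions (4.88%), Slc5a12 and Slc13a1, against 0.248% of all genes, and 2 passed in each region, against 0.936% of all genes in medulla and 0.798% in cortex. Among genes above the 30th percentile of mean intensity, 9 of 34 members passed in each region (26.5%), against 5.42% in medulla and 5.14% in cortex, and 7 in both (20.6%), against 3.16%.

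The 250 bases upstream of the start of 5 of these genes are shown because 4 of them are highest and 1 is lowest on the replicate 4 arrays. The sequences are RefSeq's, build GRCr8, 5′ to 3′ on the gene's strand. Capitals mark each CpG, a C followed by a G, the dinucleotide at which mammalian DNA is methylated.
Slc2a2, chr2:113540120-113540369, plus strand: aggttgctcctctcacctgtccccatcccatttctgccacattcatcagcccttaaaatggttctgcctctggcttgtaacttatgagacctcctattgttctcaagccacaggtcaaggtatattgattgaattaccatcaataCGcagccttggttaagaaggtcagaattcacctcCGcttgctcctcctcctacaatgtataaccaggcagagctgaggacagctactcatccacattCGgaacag
Slc5a2, chr1:192277371-192277620, plus strand: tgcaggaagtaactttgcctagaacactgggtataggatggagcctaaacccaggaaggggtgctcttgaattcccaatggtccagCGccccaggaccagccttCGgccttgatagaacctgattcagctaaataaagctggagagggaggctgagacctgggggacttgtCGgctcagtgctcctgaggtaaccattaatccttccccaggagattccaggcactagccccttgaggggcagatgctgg
Slc5a12, chr3:117633637-117633886, plus strand: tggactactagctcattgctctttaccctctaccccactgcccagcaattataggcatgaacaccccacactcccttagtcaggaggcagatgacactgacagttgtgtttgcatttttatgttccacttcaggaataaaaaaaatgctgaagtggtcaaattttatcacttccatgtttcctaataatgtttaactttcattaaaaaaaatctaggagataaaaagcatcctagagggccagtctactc
Slc13a1, chr4:53612705-53612954, minus strand: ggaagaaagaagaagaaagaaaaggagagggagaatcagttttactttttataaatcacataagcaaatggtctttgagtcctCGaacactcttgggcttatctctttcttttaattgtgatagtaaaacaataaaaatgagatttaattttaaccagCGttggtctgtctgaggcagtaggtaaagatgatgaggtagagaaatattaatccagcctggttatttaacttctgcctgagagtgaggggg
Slc16a7, chr7:63040399-63040648, minus strand: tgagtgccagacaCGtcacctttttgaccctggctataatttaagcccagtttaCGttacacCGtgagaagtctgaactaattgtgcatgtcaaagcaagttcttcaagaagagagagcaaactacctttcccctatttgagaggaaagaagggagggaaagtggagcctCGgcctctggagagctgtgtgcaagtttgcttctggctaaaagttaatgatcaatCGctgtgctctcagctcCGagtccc
Of the 7 genes with a 2-fold range in both regions, the 4 that were highest on the replicate 4 arrays held 3 CpGs in Slc2a2, 3 in Slc5a2, 0 in Slc5a12 and 2 in Slc13a1, and the 3 that were lowest held 6 in Slc16a7, 8 in Slc2a5 and 20 in Slc2a13. The 33469 promoters in the table had a median of 5.0 CpGs in these 250 bases, with quartiles of 2.0 and 15.0, and the 32 members with a promoter in the table had a median of 8.0. G and C made up 47.2% of the bases in Slc2a2, 54.8% in Slc5a2, 39.6% in Slc5a12, 36.4% in Slc13a1 and 47.2% in Slc16a7. The share was 50.8% in Slc2a5 and 71.2% in Slc2a13. The median was 51.2% over all promoters and 54.4% over the 32 members. The count did not follow the direction over all the other members: Slc16a1, also highest on both replicate 4 arrays, held 33, and Slc13a2, Slc5a10 and Slc13a4, lowest on both, held 2, 3 and 4. Slc5a1, also lowest on both, held 13. The remaining members lowest on both, Slc2a4, Slc5a11 and Slc16a14, had no promoter listed. Methylation was not measured, and the counts describe the sequence alone.

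**Figure D1:**
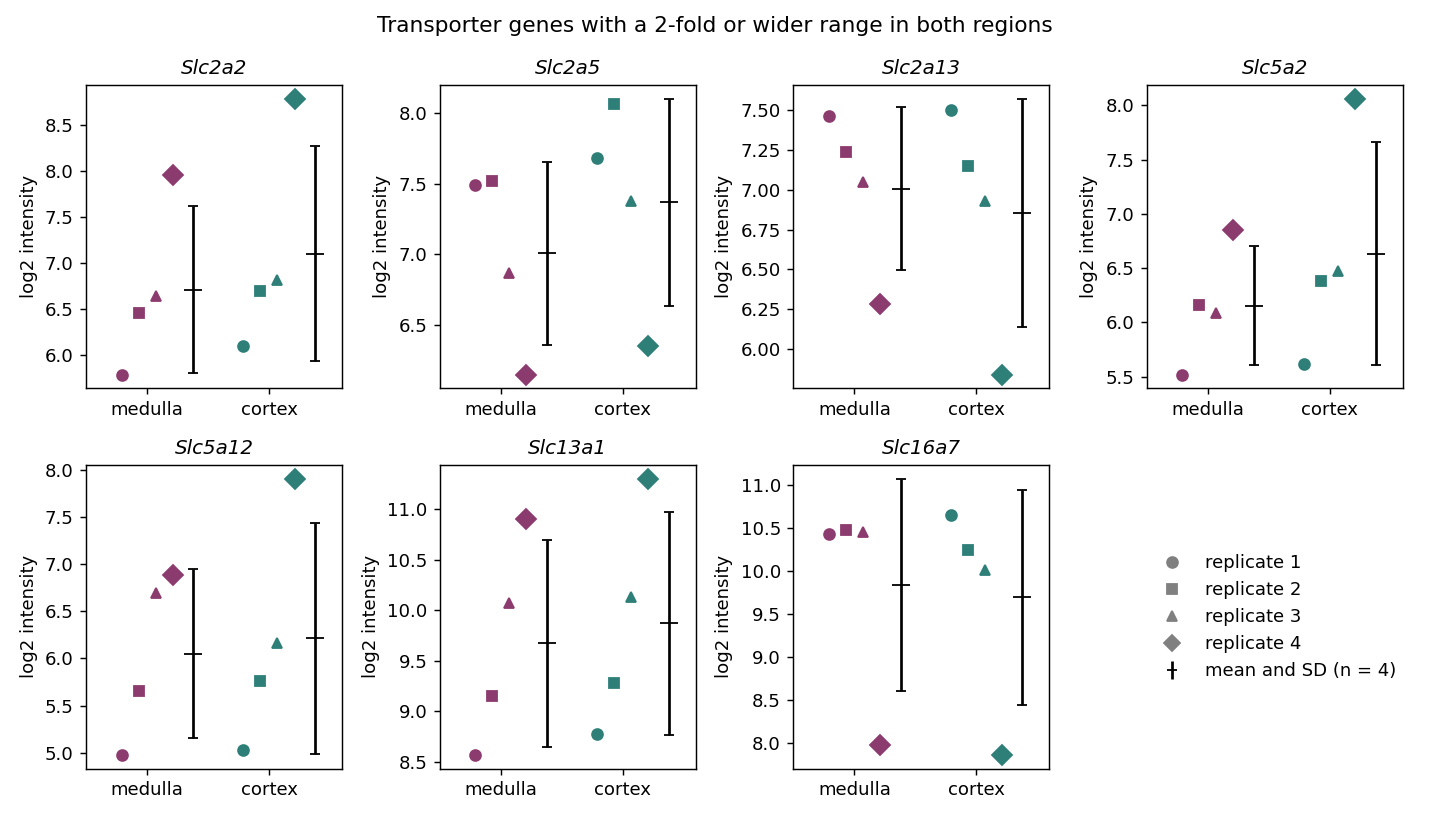
Log2 intensity (vertical axis) of the 7 genes with a range of at least 2-fold in both regions, on each of 4 medulla and 4 cortex arrays, with the mean and SD of each region. Slc2a2, Slc5a2, Slc5a12 and Slc13a1 are highest on replicate 4 of each region, and Slc2a5, Slc2a13 and Slc16a7 are lowest there.

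Sugar entry and exit genes of the early proximal tubule were highest on the replicate 4 arrays. Slc5a2 encodes SGLT2, the apical carrier that takes back most filtered glucose, and measured 5.52, 6.16, 6.09 and 6.85 log2 intensity on medulla replicates 1 to 4, against 5.62, 6.38, 6.47 and 8.06 on cortex replicates 1 to 4. Slc2a2 encodes GLUT2, through which that glucose leaves to the blood, and measured 5.79, 6.46, 6.65 and 7.96 on the medulla arrays, against 6.10, 6.70, 6.82 and 8.79 on the cortex arrays. Both genes were lowest on replicate 1 and highest on replicate 4 in each region. The range was 2.51-fold in medulla and 5.40-fold in cortex for Slc5a2, and 4.50-fold in medulla and 6.42-fold in cortex for Slc2a2. Without the replicate 4 array, the Slc5a2 range was 0.63 log2 in medulla and 0.85 in cortex, and the Slc2a2 range 0.86 and 0.72 in these regions, all under 2-fold.

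The other glucose and hexose carriers did not share that pattern. Slc5a1, which encodes SGLT1, the high-affinity carrier of the late proximal tubule, measured 6.49, 6.95, 6.67 and 6.42 on the medulla arrays, against 6.78, 7.15, 7.03 and 6.72 on the cortex arrays. It was lowest on both replicate 4 arrays, with ranges of 0.54 in medulla and 0.43 in cortex. Slc5a10, a mannose and fructose carrier of the kidney, measured 8.57, 8.49, 8.43 and 8.07 in medulla, against 8.58, 8.83, 9.01 and 8.20 in cortex. It too was lowest on the replicate 4 arrays, within a 2-fold range. Slc2a1, which encodes GLUT1, the widespread basal glucose carrier, measured 8.18, 8.04, 7.53 and 7.61 in medulla, against 8.00, 7.74, 7.36 and 7.31 in cortex. In both regions replicates 1 and 2 were the higher pair. Slc2a3, the neuronal glucose carrier GLUT3, was among the dimmest genes, between 4.63 and 4.94 in medulla and between 4.63 and 4.77 in cortex, near the array's lower quartile of 4.44 to 4.48, where a change would be hard to see.

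Slc2a5 and Slc2a13 were lowest on the replicate 4 arrays. Slc2a5 encodes GLUT5, a fructose carrier, and measured 7.49, 7.52, 6.87 and 6.15 on the medulla arrays, against 7.68, 8.06, 7.38 and 6.35 on the cortex arrays. Slc2a13, a proton-coupled myo-inositol carrier, measured 7.46, 7.24, 7.05 and 6.28 in medulla, against 7.50, 7.15, 6.93 and 5.84 in cortex. The Slc2a5 range was 1.37 log2 in medulla and 1.72 in cortex, and the Slc2a13 range 1.18 and 1.65. Without the replicate 4 array these ranges were 0.65 and 0.68 for Slc2a5, and 0.41 and 0.56 for Slc2a13. A second myo-inositol carrier gene, Slc5a11, passed 2-fold narrowly and in medulla alone, with 6.77, 6.97, 6.18 and 5.97 in medulla, against 6.57, 6.80, 7.00 and 6.09 in cortex. Slc2a4, the insulin-responsive GLUT4 of muscle and fat, also passed in medulla alone, with 5.93, 6.07, 5.39 and 4.94, against 5.85, 5.38, 5.56 and 5.20 in cortex. Without medulla replicate 4 neither passed, with medulla ranges of 0.78 for Slc5a11 and 0.675 for Slc2a4. The summed intensity of 4 fat cell markers lay between 177.7 and 238.4 on medulla arrays and between 178.3 and 234.7 on cortex arrays, highest on medulla replicate 3 and cortex replicate 1. That of 2 of 3 muscle markers hardly varied, between 73.8 and 80.9 and between 75.8 and 80.5 in these regions, and was highest on the replicate 4 arrays. Within these sums single markers differed. Fabp4 was lowest on both replicate 4 arrays, at 5.54 in medulla and 4.73 in cortex, and so was Plin1, within a narrow range. Adipoq was highest on both, and Lep was dim. Of the muscle markers, Ckm was highest on both, and Acta1 was lowest on cortex replicate 4. Neither ranged over more than 1.15-fold in either region, and Acta1 was faint, at percentile 31.4 of mean intensity over all genes. Which cells gave the Slc2a4 signal was not tested.

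The monocarboxylate carriers held the member with the widest range in medulla. Slc16a7, which encodes the lactate and pyruvate carrier MCT2, measured 10.43, 10.48, 10.45 and 7.98 on the medulla arrays, against 10.65, 10.25, 10.01 and 7.86 on the cortex arrays. It lay low on both replicate 4 arrays and high on the other 6, a range of 5.66-fold in medulla and 6.92-fold in cortex. Without the replicate 4 array the range was 0.058 log2 in medulla and 0.64 in cortex. Slc16a1, which encodes the related carrier MCT1, went the other way, with 5.73, 5.88, 6.14 and 6.62 in medulla, against 5.71, 6.09, 5.85 and 6.73 in cortex. Its range passed 2-fold narrowly in cortex, at 1.03 log2, and not in medulla, at 0.89. Without the replicate 4 array it was 0.41 in medulla and 0.38 in cortex. Slc16a3, the lactate exporter MCT4 of glycolytic cells, lay between 5.34 and 5.54 in medulla and between 5.32 and 5.45 in cortex.

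The sodium-coupled lactate carriers also differed from each other. Slc5a12, the low-affinity apical carrier of the early proximal tubule, measured 4.98, 5.66, 6.69 and 6.88 on the medulla arrays, against 5.03, 5.76, 6.16 and 7.90 on the cortex arrays. The replicate 1 arrays were lowest and the replicate 4 arrays highest, and medulla replicate 3 lay close to medulla replicate 4. The range was 1.90 log2 in medulla and 2.87 in cortex, and still 1.71 and 1.13 without the replicate 4 array of each region. Slc5a8, the high-affinity carrier of the straight tubule, measured 7.66, 7.94, 7.81 and 7.88 in medulla, against 8.03, 8.11, 8.20 and 8.35 in cortex. Its ranges were 0.28 in medulla and 0.33 in cortex, and its regions did not overlap.

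In the Slc13a family the sulfate carrier varied and the citrate carrier far less. Slc13a1, the apical sodium-sulfate cotransporter of the proximal tubule, measured 8.57, 9.15, 10.07 and 10.90 on the medulla arrays, against 8.78, 9.28, 10.13 and 11.30 on the cortex arrays. Replicate 1 was lowest and replicate 4 highest in each region, a range of 5.02-fold in medulla and 5.72-fold in cortex. Without the replicate 4 array it was still 2.84-fold in medulla and 2.54-fold in cortex. Slc13a2, which encodes NaDC1, the apical carrier of citrate and succinate, measured 7.38, 7.67, 7.24 and 6.96 in medulla, against 7.49, 7.88, 7.80 and 7.43 in cortex. It was lowest on both replicate 4 arrays, within ranges of 0.71 and 0.44. Slc13a3, the basolateral dicarboxylate carrier NaDC3, measured 9.67, 9.94, 8.99 and 9.64 in medulla, against 9.38, 10.14, 10.30 and 10.48 in cortex. Here medulla replicate 3 and cortex replicate 1 were the low arrays, and the cortex range of 1.10 log2 was 0.34 without cortex replicate 1.

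**Figure D2:**
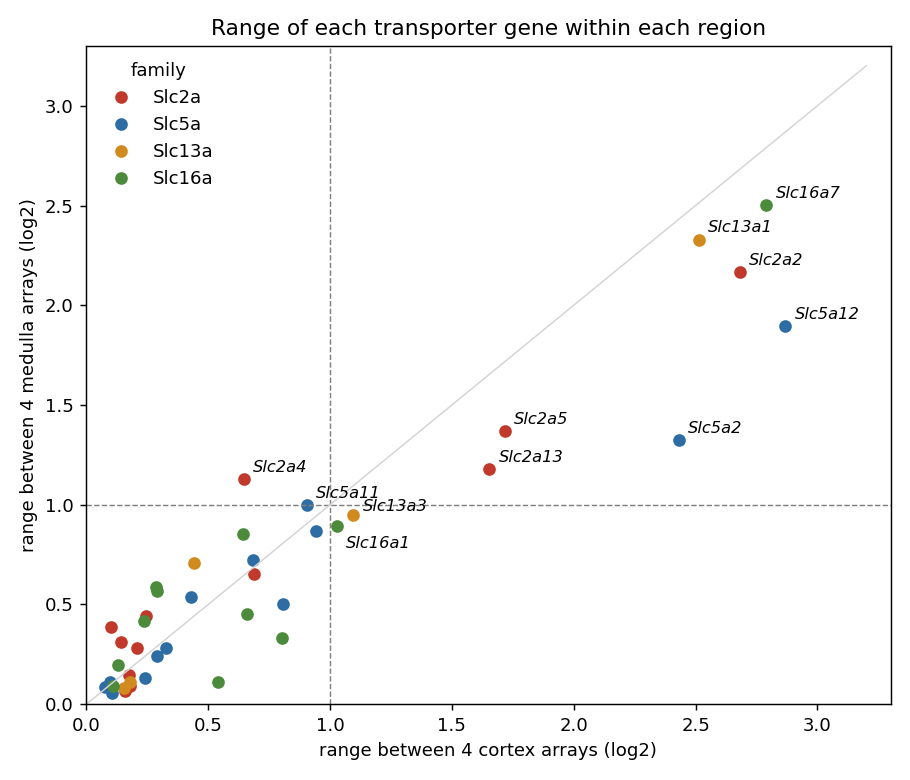
Range between the 4 medulla arrays (vertical axis) against the range between the 4 cortex arrays (horizontal axis), in log2, for the 41 genes by family, with 2-fold marked by dashed lines and equality by the grey line. The upper right quadrant holds 7 genes, from Slc2a13 at 1.18 and 1.65 to Slc16a7 at 2.50 and 2.79, and each of them has the wider range in cortex.

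The remaining 30 members ranged over less than 2-fold in both regions. Of these, 7 were dim, at or under the 30th percentile of mean intensity over all genes, with ranges up to 0.31 in medulla and 0.24 in cortex. They were Slc2a3, Slc5a1l1, Slc5a4, Slc5a4b, Slc5a7, Slc13a5 and Slc16a8, among them the choline carrier gene Slc5a7 and Slc13a5, the citrate carrier of liver. Slc5a1l1, Slc5a4 and Slc5a4b are related genes on chromosome 20, and signal shared between their probe sets was not tested. The other 23 lay above that level, and 14 of them kept within 1.5-fold in both regions, among them the urate carrier gene Slc2a9 and the creatine carrier gene Slc16a12. Several of the 14 lay only a little above that level, where a change could also be hard to see. Slc2a10 was at percentile 30.3, Slc2a7 at 31.1, Slc2a6 at 35.6, Slc13a4 at 36.0 and Slc5a5 at 36.6. Slc2a9 measured 5.64, 5.92, 5.76 and 5.79 in medulla, against 5.90, 5.94, 6.11 and 6.11 in cortex, and the lowest medulla array was replicate 1. Slc16a12 measured 8.48, 8.57, 8.25 and 8.15 in medulla, against 8.62, 8.53, 8.39 and 8.63 in cortex. Just under 2-fold stood the mannose carrier gene Slc5a9, with ranges of 0.87 in medulla and 0.94 in cortex, and just over it Slc16a1.

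Across all 41 members, 5 were highest on both replicate 4 arrays (12.2%), against 17.0% of all genes, and 10 were lowest on both (24.4%), against 16.0%. The lowest set held Slc2a4, Slc2a5, Slc2a13, Slc5a1, Slc5a10, Slc5a11, Slc13a2, Slc13a4, Slc16a7 and Slc16a14. The family means hid these opposite movements. The mean deviation from the region mean on replicate 4 was 0.17 log2 in medulla and 0.30 in cortex for Slc13a, -0.22 and -0.12 for Slc16a, -0.09 and -0.05 for Slc2a, and -0.02 and 0.10 for Slc5a. On replicate 1 it was -0.18 in medulla and -0.39 in cortex for Slc13a. In the map of deviations, Slc13a1 and Slc16a7 have the strongest colours of the Slc13a and Slc16a families on these arrays.

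**Figure D3:**
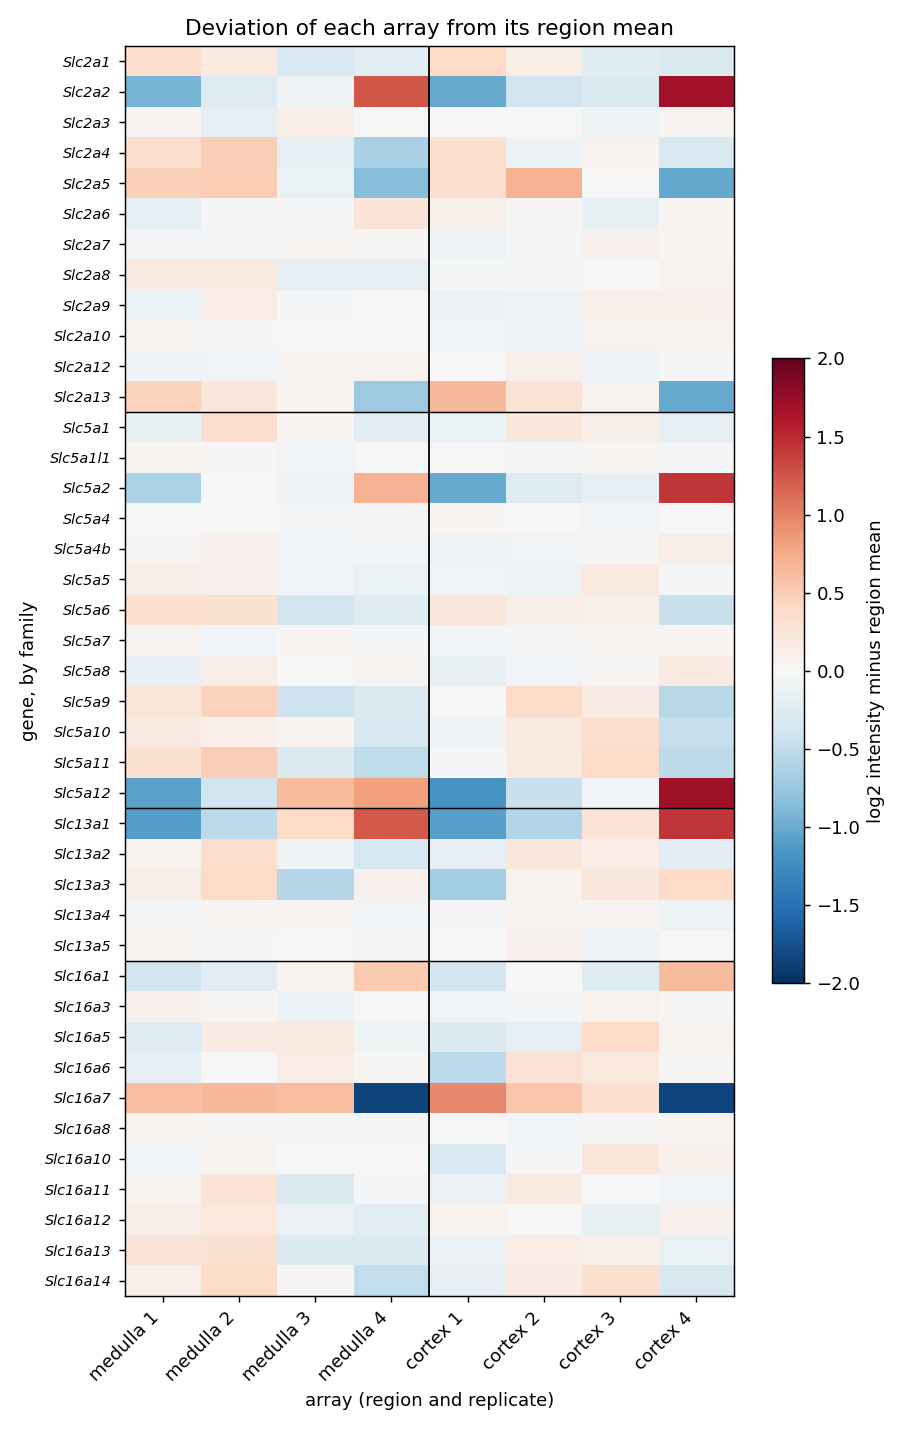
Deviation of each array from the mean of its region, in log2 intensity, for the 41 genes (rows, by family) on 4 medulla and 4 cortex arrays (columns), with red above and blue below the mean. Slc2a2, Slc5a2, Slc5a12 and Slc13a1 are red and Slc16a7, Slc2a5 and Slc2a13 blue on replicate 4 of both regions, and most other rows are pale.

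Accessory genes of the carriers were read on the same arrays. Pdzk1ip1, whose protein activates SGLT2, measured 8.35, 8.55, 7.89 and 8.76 on the medulla arrays, against 8.08, 8.45, 8.36 and 9.33 on the cortex arrays, highest on replicate 4 in both. Emb, whose protein embigin carries MCT2 to the membrane, measured 7.78, 7.96, 8.33 and 7.75 in medulla, against 8.12, 7.80, 7.75 and 6.96 in cortex. Emb was lowest on both replicate 4 arrays, by a narrow margin in medulla. Bsg, for basigin, the partner of MCT1 and MCT4, lay between 8.46 and 8.80 in medulla and between 8.62 and 8.82 in cortex. Slc26a1, a basolateral sulfate and oxalate exchanger that works in series with Slc13a1, measured 7.09, 7.45, 6.94 and 7.70 in medulla, against 6.78, 7.65, 7.68 and 8.47 in cortex. Its highest arrays were the replicate 4 arrays too, and its range was 2-fold or more in cortex alone, at 1.68 log2 against 0.77 in medulla, and without cortex replicate 4 it was 0.89. Emb and Slc26a1 were chosen after their values were seen.

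Of 6 partner genes measured, 0 had a range of 2-fold or more in medulla and 2 did in cortex, Pdzk1ip1 and Emb, and 0 in cortex without its replicate 4 array. Of 12 genes of sugar and lactate metabolism, 5 did in medulla, 3 in cortex and 2 in both, Khk and Slc37a4, and without the replicate 4 array of each region 3 did in medulla, 1 in cortex and 0 in both. Khk, the ketohexokinase that starts fructose breakdown, measured 8.51, 8.91, 7.78 and 7.34 on the medulla arrays, against 8.61, 8.86, 8.71 and 7.81 on the cortex arrays. Like the fructose carrier gene Slc2a5, it was lowest on replicate 4 in both regions. Slc37a4, which moves glucose 6-phosphate into the endoplasmic reticulum, measured 7.30, 7.53, 6.49 and 6.32 in medulla, against 7.21, 7.65, 7.41 and 6.59 in cortex. Of 11 genes of citrate and dicarboxylate handling, 1 passed in medulla, 1 in cortex and 0 in both, and 0 in either region without its replicate 4 array. Of 4 measured transcription factor genes of the proximal tubule, 0 passed in medulla and 1 in cortex. Hnf4a lay between 8.51 and 9.16 in medulla and between 8.85 and 9.47 in cortex, lowest on replicate 4 of each, as were Hnf4g and Ppara. Maf, the 1 that passed in cortex, went another way, with 7.82, 8.27, 8.48 and 8.27 in medulla, against 7.90, 8.49, 8.78 and 8.90 in cortex. Without cortex replicate 4 its cortex range was 0.88. Hnf4g, Ppara and Maf were named after their values were seen.

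**Figure D4:**
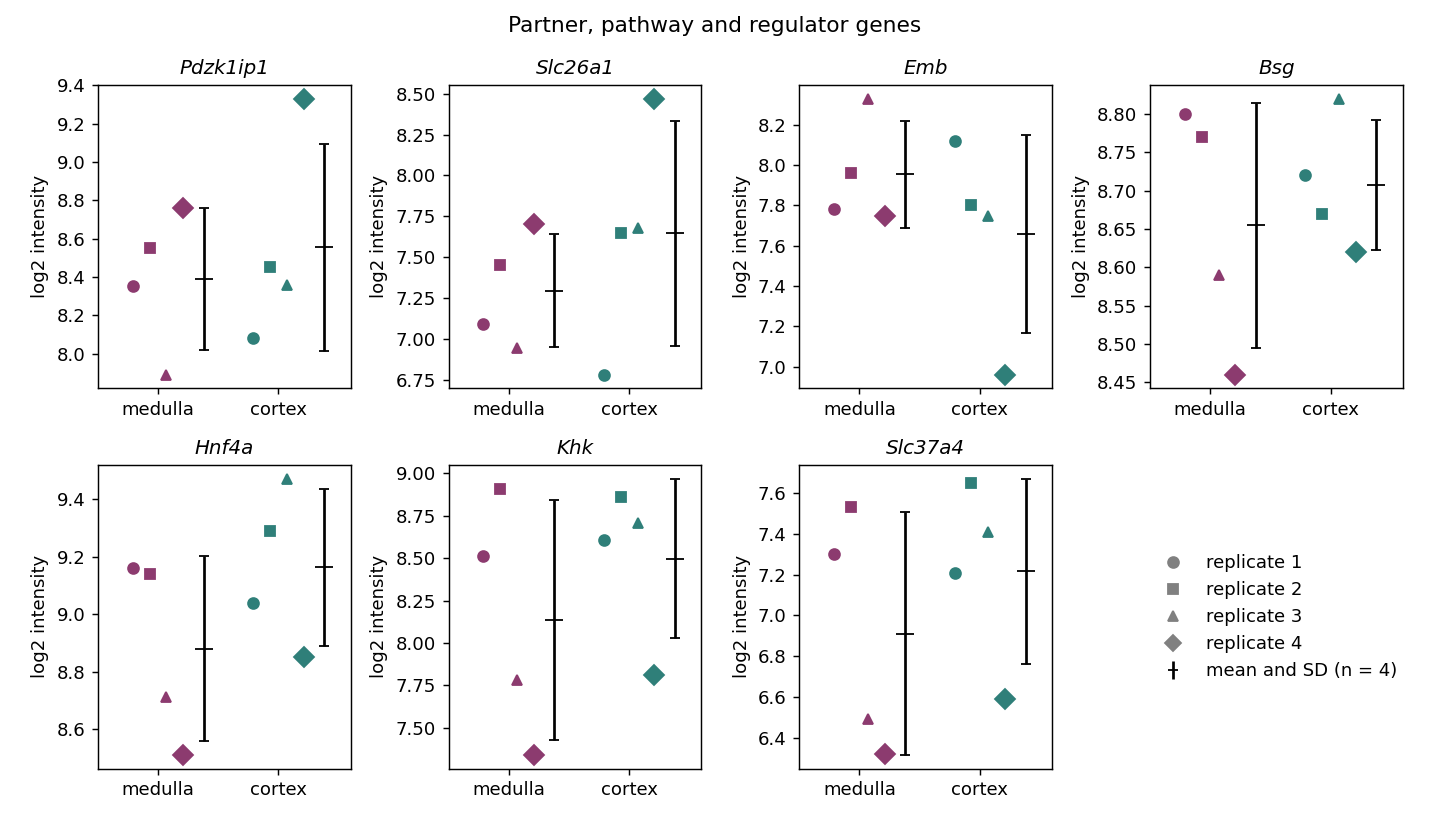
Log2 intensity (vertical axis) of 7 partner, pathway and regulator genes on each of 4 medulla and 4 cortex arrays, with the mean and SD of each region. Pdzk1ip1 and Slc26a1 are highest and Emb, Bsg, Hnf4a, Khk and Slc37a4 lowest on replicate 4 of each region.

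Segment markers outside these families showed steps on the same arrays. Of the 5 straight tubule markers, 2 had a range of 2-fold or more in both regions, Slc7a13 and Slc22a13, both lowest on the replicate 4 arrays. Slc7a13, an amino acid carrier of the straight tubule, measured 10.23 on medulla replicate 4 and 11.40 to 11.52 on the other medulla arrays, against 9.65 on cortex replicate 4 and 11.37 to 11.69 on the other cortex arrays. Without the replicate 4 array its range was 0.12 log2 in medulla and 0.33 in cortex, and Slc22a13 alone of the 5 kept a 2-fold range. The lower levels were not confined to the proximal tubule. Of the 4 thick ascending limb markers, 3 had a range of 2-fold or more in medulla and 4 in cortex, and 0 in either region without its replicate 4 array. Slc12a1, the salt carrier of that limb, measured 10.15 on medulla replicate 4 and 11.07 to 11.25 on the other medulla arrays, against 8.62 on cortex replicate 4 and 10.42 to 11.26 on the other cortex arrays. Of the 4 principal cell markers, 3 passed in medulla and 2 in cortex, against 1 and 0 without the replicate 4 array. Aqp2, the vasopressin-regulated water channel, measured 8.12 on medulla replicate 4 and 9.41 to 10.78 on the other medulla arrays, against 8.03 on cortex replicate 4 and 9.36 to 9.72 on the other cortex arrays. Of the 6 markers of the whole proximal tubule, 3 had a range of 2-fold or more in medulla, 2 without medulla replicate 4, and 0 in cortex. Their ranges ran from 0.38 log2 for Lrp2 to 1.30 for Slc34a1 in medulla, and from 0.14 for Lrp2 to 0.945 for Slc22a8 in cortex. Cubn, an endocytic receptor gene, was highest on both replicate 4 arrays, with 9.62, 9.68, 9.96 and 10.17 in medulla, against 9.83, 9.87, 9.96 and 10.33 in cortex. Slc12a1, Aqp2, Cubn, Cldn16, Scnn1g, Havcr1, Akr1b1 and Fabp4 were chosen after their values were seen. The part of cell makeup, injury and treatment in the range of the carriers was not tested.

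The second question was how the regions differed. By limma with Benjamini-Hochberg adjustment over all genes, 0 of the 41 members were called on the joint rule of a 2-fold difference and an adjusted p under 0.05, as were 0.0% of all genes, and the smallest adjusted p of a member was 0.875. Before adjustment, 3 members (7.32%) had a p under 0.05, against 5.35% of all genes. limma with a trended robust prior and limma with array weights called 0 members as well. The difference, medulla minus cortex, was negative in 32 members (78.0%), against 54.2% of all genes, with a median of -0.09 log2 over the members and -0.01 over all genes. Above the 30th percentile of mean intensity it was negative in 26 of 34 members (76.5%), against 49.6% of all such genes. All 13 Slc5a genes were negative (11 after quantile normalization and 12 after median centring), 4 of 5 Slc13a genes, 9 of 11 Slc16a genes (8 after median centring) and 6 of 12 Slc2a genes (5 after either scaling). This is the direction of the proximal tubule markers, of which 5 of 6 were negative, with a median of -0.29, and their part in it was not tested.

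**Figure D5:**
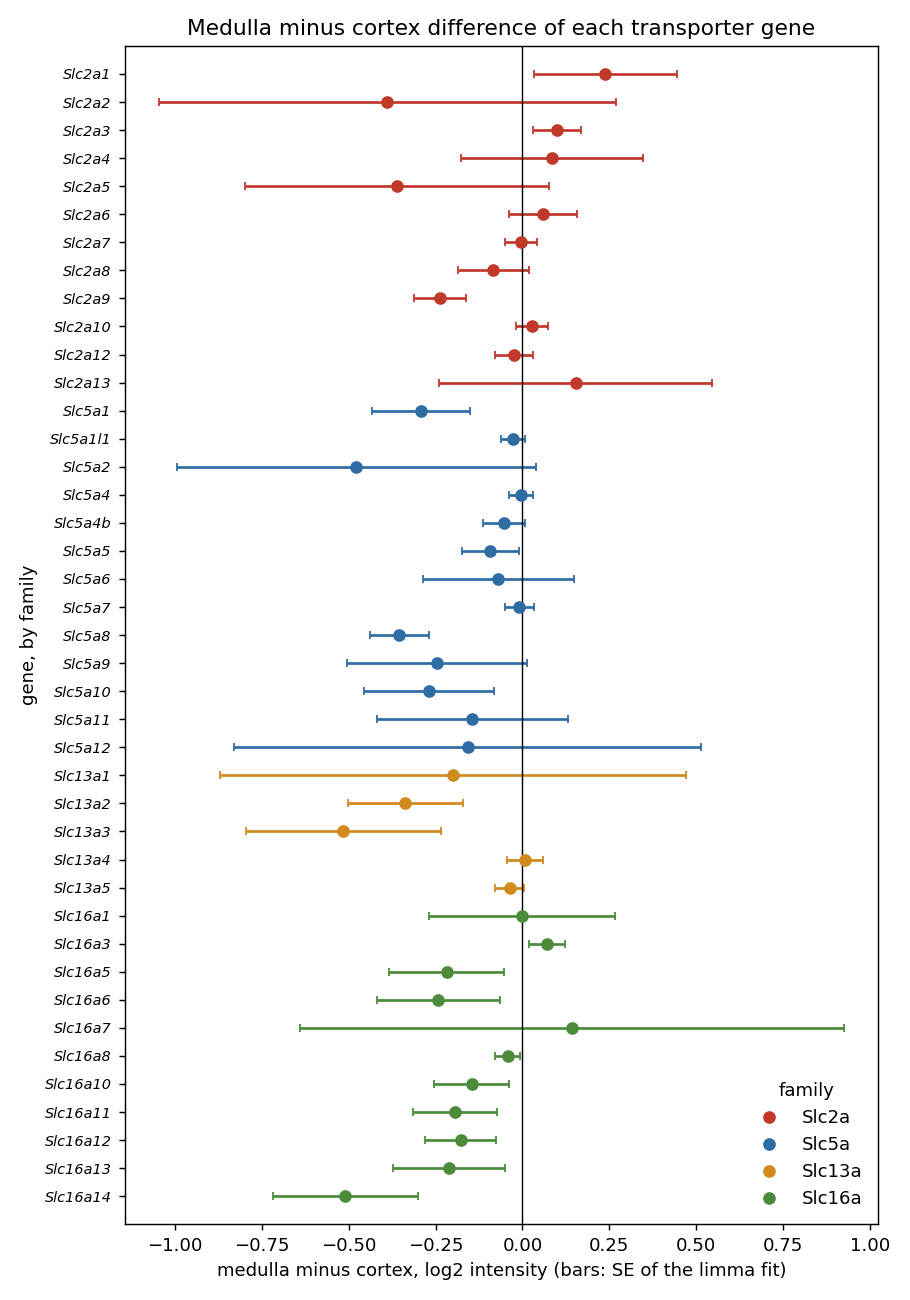
Medulla minus cortex difference in log2 intensity (horizontal axis) with the standard error of the limma fit, for the 41 genes by family (vertical axis, 4 arrays per region). Most points lie left of 0, from -0.52 for Slc13a3 to 0.24 for Slc2a1, and the widest bars belong to the genes that varied between arrays of a region.

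Single members differed little between regions. Slc13a3 had the largest difference, with a mean of 9.56 ± 0.40 in medulla and 10.08 ± 0.48 in cortex (SD, n = 4 each), or -0.52 with a standard error of 0.28 (limma's adjusted p = 0.876). Without cortex replicate 1 it was -0.75, and without medulla replicate 3 it was -0.33. Slc16a14, a carrier gene of the monocarboxylate family with no settled substrate, measured 7.61, 7.88, 7.53 and 7.02 in medulla, against 7.85, 8.19, 8.34 and 7.70 in cortex. Its difference was -0.51 ± 0.21 (SE), with an adjusted p of 0.875 by limma, and the regions overlapped. Slc5a8 was the 1 member whose regions did not overlap (2.44%), against 2.83% of all genes, with a difference of -0.35 ± 0.09 (SE). Its exact permutation p was 0.0286, two-sided and unadjusted, the smallest that 4 arrays against 4 can give, and limma's adjusted p was 0.875.

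For the variable members the spread between arrays exceeded the regional difference. The difference was -0.48 ± 0.52 (SE) for Slc5a2, -0.39 ± 0.66 for Slc2a2 and -0.36 ± 0.44 for Slc2a5, with limma's adjusted p of 0.916, 0.952 and 0.934 for these genes. Without cortex replicate 4 it was -0.003 for Slc5a2, 0.17 for Slc2a2 and -0.70 for Slc2a5. Without medulla replicate 4 it was -0.71 for Slc5a2, -0.80 for Slc2a2 and -0.075 for Slc2a5. With both replicate 4 arrays left out it was -0.235 for Slc5a2, -0.24 for Slc2a2 and -0.42 for Slc2a5. Slc16a7 differed by 0.14 ± 0.78, Slc13a1 by -0.20 ± 0.67 and Slc5a12 by -0.16 ± 0.67. Slc2a1 was the member most raised in medulla, with a mean of 7.84 ± 0.32 in medulla and 7.60 ± 0.33 in cortex (SD, n = 4 each), or 0.24 ± 0.21 (SE) as the difference. Its adjusted p by limma was 0.891, and without medulla replicate 1 the difference was 0.12.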

How the data were processed

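Per the labels' protocols, biotin-labelled targets were made from total RNA of homogenised kidney with a whole-transcript kit. The authors deposited an intensity for every probe set. RMA and Affymetrix Expression Console are named in the submitters' processing notes; which versions were run is not given in the sources used here. Intensities ran from 17.3 to 6229, so they were read as linear and already normalized, and were converted to log2 with no pseudocount. Of 29870 probe sets, 18511 had 1 gene symbol, which gave 18166 genes with the brightest probe set kept. The regional contrast used limma 3.58.1 (R 4.3.3), tested on simulated data first, and exact permutation tests used scipy 1.17.1. Array medians lay between 34.1 and 34.7, and precision is limited by the 4 arrays per region. Replicates are numbered in deposit order within a region and were not treated as paired. Members, lists and tests were chosen with earlier results of these data known. Values on every array are given for members with a 2-fold range in either region, without overlap of the regions, or with 1 of the 5 largest differences, and for a list fixed by role, of which Slc16a9 is not analysed here. In the pathway lists, genes with a 2-fold range in both regions, Hnf4a, Pdzk1ip1 and Bsg are named.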

Additional observations from a re-analysis of the deposited data

Results flagged for a closer look

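Slc16a7 on medulla replicate 4 measured 7.98 log2 intensity, far from the other medulla arrays at 10.43 to 10.48, so that the gap made up a share of 0.977 of the whole range of the region. It was the 1 value flagged among 42 groups of 4 arrays examined, by a cutoff that chance passes in about 1 group in 20. Chance alone would thus flag about 2.1 groups, so 1 flagged value is not more than chance gives. The groups came from 21 members, some chosen for a 2-fold range on these same arrays, so the chance rate is only a rough guide. In cortex the lowest Slc16a7 value, 7.86, also fell on replicate 4.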

How the results depend on the processing

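The counts of members with a wide range depend on the replicate 4 arrays and on the threshold. With 1 array left out in turn, the 2-fold count ran from 2 to 9 in medulla, from 2 to 9 in cortex and from 2 to 7 in both regions, and it was 2 in each case without the replicate 4 array concerned or without both. At 1.5-fold 17 members passed in medulla, 18 in cortex and 15 in both, and at 3-fold 4 in medulla, 7 in cortex and 4 in both. The number of members without overlap of the regions ran from 1 to 7 with 1 array left out, 7 of them without medulla replicate 2 and 5 without cortex replicate 1, and was 2 without both replicate 4 arrays. The share of all genes without overlap was not computed for these settings, so the counts have no background beside them. With fewer arrays in a region, non-overlap is also easier to reach by chance. The cause of these shifts was not tested. The Slc2a2 difference ran from -0.80 to 0.17 and turned positive without cortex replicate 4. Without both replicate 4 arrays it was -0.24. The number of negative members was 29 after quantile normalization, 29 after median centring and 26 without dim genes, and no member was called by adjusted p under any alternative. Averaging probe sets changed no member, since each has 1. No paired analysis was made, because the labels give the regions no shared replicate numbers and do not say which arrays come from 1 animal. Pairing by deposit order was not tried, though same-numbered arrays of both regions ran alike in genes such as Slc2a2 and Slc13a1. The regional test leaves out any such pairing. If those arrays are pairs, the spread between animals stays in the standard errors given here. Dim genes near the lower quartile of intensity could change without it being seen.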
